A study of Mus musculus with 6 samples.

Results

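The genes described here encode enzymes of prostaglandin E2 synthesis and inactivation, 3 of its receptors and 1 protein of the neighbouring leukotriene pathway in mouse epidermis: Pla2g4a, Ptgs1, Ptgs2, Ptges, Ptges2, Hpgd, Ptger2, Ptger3, Ptger4 and Alox5ap. They were chosen by name, and all 10 were found among the 47455 gene symbols of the count table. The libraries were made from the RNA of whole epidermis of 3 mice of strain C57BL/6, 6 to 8 weeks old, with no transgene or deletion named in the labels. Each mouse gave 1 library from non-wounded tissue and 1 from tissue wounded with a 3 mm punch, 8 wounds per back, and taken 2 h later. The wounded libraries hold all epidermal cells of the sample together, and the labels do not say how much tissue around each wound was taken. The comparison asks which transcripts differ between wounded and non-wounded epidermis.

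Prostaglandins are local lipid signals made from arachidonic acid. Cytosolic phospholipase A2 releases the fatty acid from membranes, the cyclooxygenases turn it into prostaglandin H2, and terminal synthases turn that into prostaglandin E2 and other prostanoids. Prostaglandin E2 acts on the receptors EP1 to EP4, is carried into cells by a transporter and is inactivated by 15-hydroxyprostaglandin dehydrogenase. In skin it is known for its part in pain, blood flow, inflammation and keratinocyte growth.

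The regulatory sequence of 4 of these genes is shown because they are the enzymes that make or inactivate the prostaglandin and on which the results turn: Ptgs2, the inducible cyclooxygenase, Ptgs1, the constitutive one, Ptges, the inducible terminal synthase, and Hpgd, the inactivating enzyme. Each stretch covers the 250 bases before the RefSeq transcription start and the 30 bases from it on (RefSeq, GRCm38.p6), read 5′ to 3′ on the gene's strand. Such windows were found for 9 of the 10 genes. Capitals mark matches to the motifs searched on both strands.
Ptgs2, chr1:150099781-150100060 (+): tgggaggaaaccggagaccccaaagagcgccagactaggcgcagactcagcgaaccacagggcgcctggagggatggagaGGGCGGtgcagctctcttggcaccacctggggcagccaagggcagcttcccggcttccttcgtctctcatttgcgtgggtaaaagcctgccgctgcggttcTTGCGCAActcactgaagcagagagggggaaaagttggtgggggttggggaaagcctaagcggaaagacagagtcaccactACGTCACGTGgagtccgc
Ptgs1, chr2:36230176-36230455 (+): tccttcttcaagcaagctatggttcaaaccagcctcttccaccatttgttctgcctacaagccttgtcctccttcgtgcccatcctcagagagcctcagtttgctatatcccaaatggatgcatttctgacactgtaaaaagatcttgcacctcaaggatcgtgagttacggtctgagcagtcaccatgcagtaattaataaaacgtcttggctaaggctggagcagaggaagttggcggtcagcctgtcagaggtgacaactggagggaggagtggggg
Ptges, chr2:30903268-30903547 (-): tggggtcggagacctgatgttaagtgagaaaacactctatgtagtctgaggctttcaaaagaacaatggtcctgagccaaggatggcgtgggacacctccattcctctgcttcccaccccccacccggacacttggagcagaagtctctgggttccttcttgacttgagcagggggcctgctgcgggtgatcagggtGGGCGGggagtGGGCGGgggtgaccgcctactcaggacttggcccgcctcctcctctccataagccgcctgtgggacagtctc
Hpgd, chr8:56294302-56294581 (+): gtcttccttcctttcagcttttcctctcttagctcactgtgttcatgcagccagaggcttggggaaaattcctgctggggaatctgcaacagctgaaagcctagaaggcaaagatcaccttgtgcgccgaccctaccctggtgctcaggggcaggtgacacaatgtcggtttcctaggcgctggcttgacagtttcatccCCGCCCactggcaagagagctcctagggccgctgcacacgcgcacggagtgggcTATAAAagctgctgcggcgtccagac

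The Ptgs2 window held a GC box (CCGCCC on the reverse strand) at -170 to -165 and the palindrome bound by C/EBP factors (TTGCGCAA) at -69 to -62. It also held the core of the cAMP response element (TGACGT, on the reverse strand) at 13 to 18, which overlaps an E-box (CACGTG) at 17 to 22. Positions are counted from the RefSeq start as 1. The palindrome occurred in 0.18% of 32851 windows of the same length, the cAMP element core in 7.26%, the E-box in 6.79% and the GC box in 34.7%. The Ptges window held 2 GC boxes on the reverse strand, at -53 to -48 and at -42 to -37. The Hpgd window held a GC box at -50 to -45 and a TATA box (TATAAA), found in 13.1% of windows, at 5 to 10. GENCODE places the start of Hpgd at chr8:56294585, past the end of this window, so by that annotation both motifs lie before the start. The Ptgs1 window held no match to these motifs. None of the windows shown, of Ptgs2, Ptges, Hpgd or Ptgs1, held the AP-1 site TGACTCA (4.94% of windows) or the NF-kappaB consensus (7.94%). The GC content was 61.4% for Ptgs2, 59.6% for Ptges, 57.1% for Hpgd and 49.6% for Ptgs1, with a median of 52.5% over all windows. These matches describe letters only, and no binding was measured.

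The transcripts also differ in the AU-rich pentamer ATTTA, the letters of which make up the elements known to shorten the life of many inflammatory mRNAs. In the 3′ UTR of 2445 bases that GENCODE gives for Ptgs2 the pentamer occurred 14 times, and 2.84% of 21677 genes had as many or more. The 3′ UTRs of Ptgs1 (921 bases) and Ptges (3106 bases) held none. Ptger2 (1825 bases) held 6, Ptger4 (1233 bases) 5, Hpgd (838 bases) 4 and Pla2g4a (443 bases) 4. Ptges2 (3444 bases) and Ptger3 (1933 bases) held 4 each and Alox5ap (419 bases) 2, against a median of 1 over all genes. Per kilobase, Pla2g4a had the most, 9.03, above Ptgs2 at 5.73 and Hpgd and Alox5ap at 4.77. The stretch of Ptgs2 with the most pentamers lies 12 to 41 bases after the stop codon and is shown with its 4 pentamers in capitals.
Ptgs2 3′ UTR site: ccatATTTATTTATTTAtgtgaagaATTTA

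Of the 10 genes, 9 passed the filter on low counts and were tested. In wounded epidermis 3 of them rose (Ptgs1, Ptges and Ptger4), 4 fell (Pla2g4a, Hpgd, Ptger3 and Alox5ap) and 2 were not called (Ptgs2 and Ptges2). Called means a Benjamini-Hochberg adjusted p under 0.05 by edgeR's quasi-likelihood test, and 48.4% of all 16079 genes tested were called, 24.0% higher and 24.4% lower. The share among the tested prostaglandin genes, 77.8%, stands beside that background for only 9 genes. Their median log2 fold change was -0.12 and that of all genes -0.03. Levels are CPM, counts scaled by the library total times its TMM factor, in the order of mice 1, 2 and 3. A log2 fold change above 0 means a higher level after wounding, SE is its standard error, and n = 3 libraries per group throughout.

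**Figure D1:**
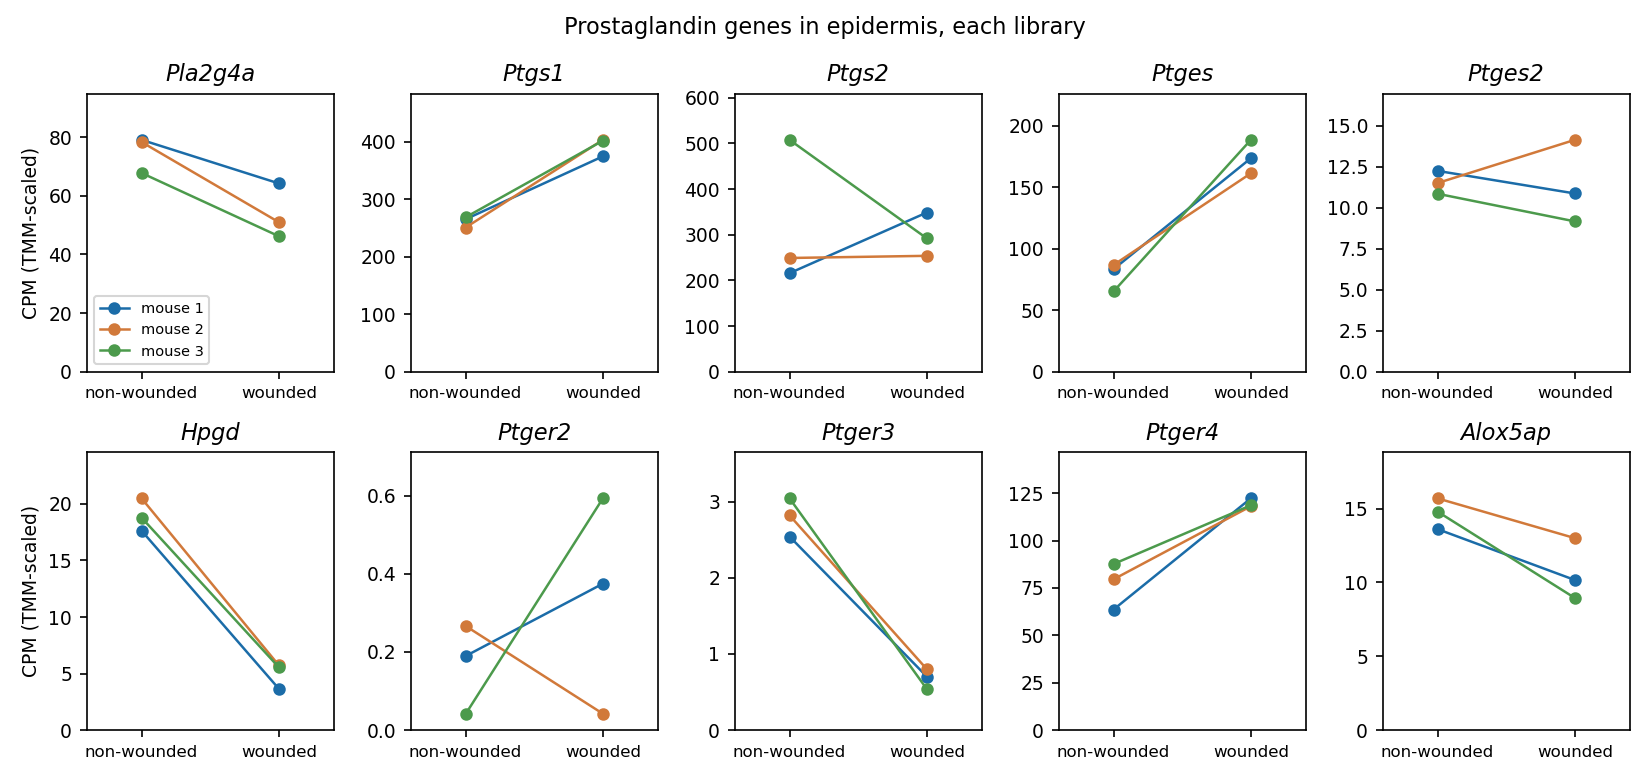
CPM of each of the 10 genes in the 6 libraries, 1 panel per gene with its own axis from 0; points are libraries, lines join the 2 libraries of a mouse. The wounded libraries lie above all non-wounded ones for Ptgs1, Ptges and Ptger4 and below them for Pla2g4a, Hpgd, Ptger3 and Alox5ap, while Ptgs2 moves in different directions in the 3 mice.

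The 6 libraries held between 20746185 and 26814845 counts. The 4 keratinocyte keratins were high in both groups, at a summed 21261 to 27546 CPM in non-wounded and 21513 to 25490 CPM in wounded libraries. Krt14 was higher (log2 0.53). Krt5, Krt10 and Krt1 were not called, though Krt1 (log2 -0.50) was lower in 3 of 3 mice. Markers of other cells moved with the groups. The 4 Langerhans cell markers summed to 922 to 961 CPM in non-wounded and 1202 to 1485 CPM in wounded libraries, with 3 of 4 higher. The 5 markers of dendritic epidermal T cells went from 113 to 145 CPM to 90.9 to 105 CPM, with 3 of 5 lower. The 6 macrophage and monocyte markers went from 91.8 to 106 CPM to 50.9 to 70.9 CPM, with 3 of 5 tested higher and 2 lower. Markers of cells below the epidermis did not all move one way. The 6 fibroblast genes summed to 2.67 to 7.36 CPM and then 29.7 to 65.4 CPM, with 5 of 5 tested higher. The 5 red blood cell genes went from 18.9 to 26.1 CPM to 97.3 to 165 CPM, with 5 of 5 higher. The 4 skeletal muscle genes went from 0.758 to 1.89 CPM to 7.92 to 11.3 CPM, with 4 of 4 higher. The 5 mast cell genes, none of them tested, went from 0 to 0.411 CPM to 0.755 to 0.937 CPM. The 3 smooth muscle genes went from 7.58 to 20.6 CPM to 3.16 to 4.26 CPM. Of the 2 tested, Acta2 was lower (log2 -3.27) and Tagln was not called (0.35). The 5 endothelial genes went from 4.04 to 5.99 CPM to 3.83 to 4.73 CPM. Of the 2 tested, Vwf was lower (log2 -0.78) and Pecam1 was not called (0.15). The 6 neutrophil markers reached 4.50 to 8.19 CPM in wounded libraries from 1.63 to 2.36 CPM, with Ly6g at 0 counts in all libraries and 2 of 2 tested higher. The part of these cells in the results below was not tested, and in bulk tissue fewer cells of a type and less RNA per cell cannot be told apart.

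Release of arachidonic acid came first in the pathway, and its cytosolic phospholipase transcript fell. Pla2g4a encodes cytosolic phospholipase A2 alpha, the enzyme that frees arachidonic acid for the cyclooxygenases. It stood at 79.1, 78.4 and 67.8 CPM in non-wounded and at 64.2, 51.0 and 46.2 CPM in wounded libraries. The groups did not overlap, and the wounded library was the lower one in each mouse, by log2 -0.30, -0.62 and -0.55. The mean went from 75.1 ± 6.33 to 53.8 ± 9.34 CPM (SD), a log2 fold change of -0.48 (SE 0.13, 95% interval -0.77 to -0.19, edgeR adjusted p = 0.0116). On log2(TPM + 1), which divides by the length of the transcripts that the authors' counting assigned, the fall was -1.11 (limma adjusted p = 0.00273). The ratio of counts to TPM for Pla2g4a, relative to the other genes of the library, was 1.21, 1.17 and 1.34 times as high in the wounded as in the non-wounded library of the mouse. That shift was larger in size than those of 91.2% of 14109 genes. GENCODE lists coding Pla2g4a transcripts of 2856, 2835 and 613 bases, and which of them were counted was not tested.

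Of the cyclooxygenases, Ptgs1 rose and Ptgs2 did not change in one direction. Ptgs1 encodes COX-1, the cyclooxygenase that most tissues express at rest. It stood at 265, 251 and 269 CPM in non-wounded and at 375, 404 and 402 CPM in wounded libraries. All wounded libraries lay above all non-wounded ones, with rises of log2 0.50, 0.69 and 0.58 within the mice. The mean went from 262 ± 9.48 to 393 ± 16.2 CPM (SD), a 1.5-fold rise (log2 0.59, SE 0.08, edgeR adjusted p = 0.000302). Its smallest value over the scalings, 0.26 with library totals alone (adjusted p = 0.0211), was still called.

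Ptgs2 encodes COX-2, the cyclooxygenase that growth factors and cytokines induce within hours in many cells. It stood at 216, 249 and 508 CPM in non-wounded and at 349, 254 and 292 CPM in wounded libraries. The non-wounded library of mouse 3 had the highest level of the 6, and the groups overlapped. Within mouse 1 Ptgs2 was higher after wounding by log2 0.69, within mouse 2 it differed by 0.03, and within mouse 3 it was lower by log2 -0.80. The means were 324 ± 160 and 298 ± 47.7 CPM (SD), with a log2 fold change of -0.12 (SE 0.27, 95% interval -0.72 to 0.48, edgeR adjusted p = 0.740). With the mouse 3 non-wounded library left out, the estimate turned to 0.35 (SE 0.14, edgeR adjusted p = 0.0687), which was not called either. Ptgs2 had between 5415 and 12352 counts per library.

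Per transcript length, Ptgs1 was the most abundant of these genes in both groups, and Ptgs2 lay below it in every library. The TPM of Ptgs2 as a share of that of Ptgs1 was 0.460, 0.465 and 0.902 in non-wounded and 0.459, 0.269 and 0.337 in wounded libraries. All wounded ratios lay below all non-wounded ones, though the nearest pair, both of mouse 1, stood at 0.460 and 0.459. With CPM in place of TPM the groups overlapped. The mean log2 ratio differed by -0.74 in wounded libraries (exact two-sided permutation test, p = 0.1, the smallest p that 3 against 3 unpaired libraries allow). With CPM it differed by -0.61 (exact permutation p = 0.2). Both tests took the libraries as unpaired, though the labels pair them by mouse. The summed TPM of both cyclooxygenases was 242, 247 and 350 in non-wounded and 302, 295 and 329 in wounded libraries, and these ranges overlapped.

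Of the terminal prostaglandin E synthases, Ptges rose and Ptges2 was not called. Ptges encodes microsomal prostaglandin E synthase 1, the inducible enzyme that works mainly with COX-2. It stood at 83.4, 86.8 and 65.2 CPM in non-wounded and at 174, 161 and 189 CPM in wounded libraries. Every wounded library lay above every non-wounded one, with rises of log2 1.06, 0.89 and 1.53 within the mice. The mean went from 78.5 ± 11.6 to 174 ± 13.6 CPM (SD), a 2.22-fold rise (log2 1.15, SE 0.12, edgeR adjusted p = 3.85e-05). Ptges2, which encodes the membrane-associated prostaglandin E synthase 2, stood at 12.2, 11.5 and 10.9 CPM and then at 10.9, 14.1 and 9.16 CPM. The groups overlapped and the mice differed in direction, by log2 -0.17, 0.30 and -0.24. The log2 fold change was -0.02 (SE 0.18, 95% interval -0.41 to 0.38, edgeR adjusted p = 0.952). The TPM of Ptges was 4.08, 4.90 and 4.27 times that of Ptges2 in non-wounded and 11.3, 6.52 and 13.2 times in wounded libraries, with no overlap.

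Among the enzymes, the inactivating one had the largest change, a fall. Hpgd encodes 15-hydroxyprostaglandin dehydrogenase, which oxidises prostaglandin E2 to an inactive keto form. It stood at 17.6, 20.5 and 18.8 CPM in non-wounded and at 3.65, 5.72 and 5.55 CPM in wounded libraries. The groups were far apart, and the falls within the mice were log2 -2.27, -1.84 and -1.76. Mean levels were 19.0 ± 1.44 and 4.98 ± 1.15 CPM (SD), 3.81-fold lower after wounding (log2 -1.93, SE 0.19, edgeR adjusted p = 2.82e-05). The summed TPM of Ptgs1 and Ptgs2 was 15.4, 14.1 and 21.2 times that of Hpgd in non-wounded and 121, 76.4 and 83.5 times in wounded libraries. Transcript ratios are levels of RNA, and no prostaglandin was measured.

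**Figure D2:**
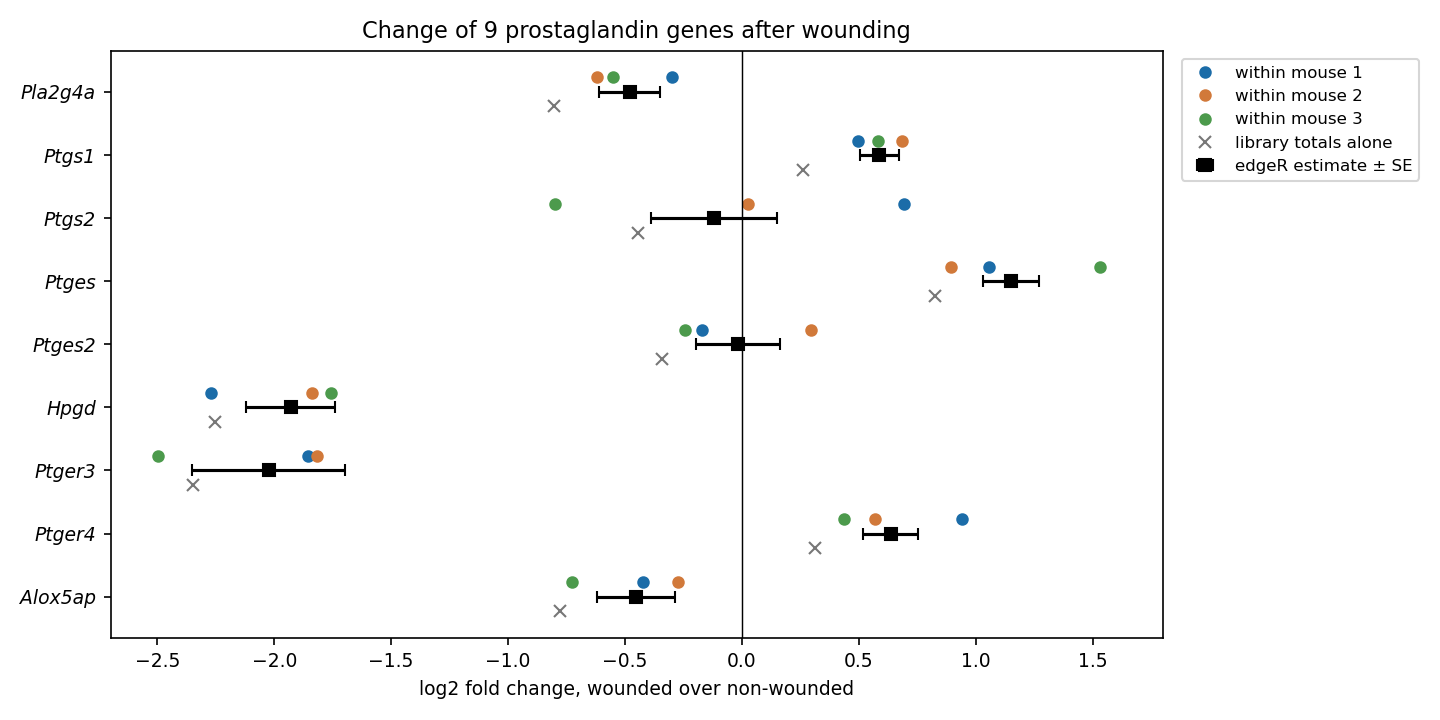
Log2 fold change, wounded over non-wounded, of the 9 genes tested: black squares with bars are the edgeR estimate ± SE, coloured points the value within each mouse and crosses the estimate with library totals alone. The points of the 3 mice lie on the same side of 0 for the 7 called genes, from Ptger3 at -2.02 to Ptges at 1.15, and on both sides for Ptgs2 and Ptges2.

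The receptors measured moved in opposite directions. Ptger4 encodes EP4, a receptor that raises cAMP. It stood at 63.6, 79.6 and 87.6 CPM in non-wounded and at 122, 118 and 119 CPM in wounded libraries. The wounded libraries lay close together and above all non-wounded ones, with rises of log2 0.94, 0.57 and 0.44 within the mice. The mean went from 76.9 ± 12.2 to 120 ± 2.27 CPM (SD), a 1.56-fold rise (log2 0.64, SE 0.12, edgeR adjusted p = 0.00137). On log2(TPM + 1) the rise was 0.29 and not called (limma adjusted p = 0.102), where the median of all genes lay -0.29 below its value with TMM. Exons of Ptger4 share 82 bases with Ttc33 and 1015 with the pseudogene Gm15937 on the other strand. Over all 6 libraries Ttc33 had 1101 counts, Gm15937 had 5.64 and Ptger4 had 13516, and with no strand setting given the shared bases cannot be told apart.

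Ptger3, which encodes EP3, a receptor that mostly lowers cAMP, was low and fell. It stood at 2.54, 2.82 and 3.04 CPM in non-wounded and at 0.703, 0.799 and 0.539 CPM in wounded libraries, which rest on 67, 74 and 74 and on 15, 19 and 10 counts. No wounded library reached the level of a non-wounded one, and the falls within the mice were log2 -1.85, -1.82 and -2.50. Mean levels were 2.80 ± 0.251 and 0.680 ± 0.132 CPM (SD), 4.06-fold lower after wounding (log2 -2.02, SE 0.33, edgeR adjusted p = 0.000640). Relative to the other genes, the ratio of counts to TPM for Ptger3 was 1.08, 1.13 and 1.52 times as high in the wounded library of mice 1, 2 and 3. That shift was larger in size than those of 90.4% of 14109 genes, so the TPM of Ptger3 also depends on the transcript lengths assigned. Ptger2, which encodes EP2, the other receptor that raises cAMP, was near the limit of detection, with 5, 7 and 1 counts in non-wounded and 8, 1 and 11 in wounded libraries. It did not pass the filter and was not tested. Its 13 counts in non-wounded libraries together correspond to 0.169 CPM (exact 95% Poisson interval 0.0899 to 0.289) and its 20 counts in wounded ones to 0.314 CPM (0.192 to 0.485), intervals that cover counting error only and overlap. Exons of Ptger2 also share 246 bases with the antisense gene Gm17173, which had 111 counts.

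Ptger4 made up most of the transcript of the EP receptors. Of the summed TPM of Ptger1, Ptger2, Ptger3 and Ptger4 it held 90.5%, 92.3% and 92.5% in non-wounded and 98.0%, 98.2% and 98.5% in wounded libraries. The wounded shares lay above all others, while the sum itself, 29.9 to 39.9 TPM and 38.8 to 40.9 TPM, overlapped between the groups.

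Alox5ap encodes FLAP, the protein that hands arachidonic acid to 5-lipoxygenase for leukotriene synthesis and so marks the other main use of that fatty acid. It stood at 13.6, 15.7 and 14.8 CPM in non-wounded and at 10.2, 13.0 and 8.95 CPM in wounded libraries. The wounded libraries lay below all non-wounded ones, by log2 -0.42, -0.27 and -0.73 within the mice. The mean went from 14.7 ± 1.04 to 10.7 ± 2.08 CPM (SD), a log2 fold change of -0.45 (SE 0.17, edgeR adjusted p = 0.0443). That call was close to the threshold and was lost with RLE factors (adjusted p = 0.0516), and also when 1 non-wounded library was left out (mouse 1, 2 or 3: 0.0522, 0.130 and 0.0835) or 1 wounded library of mouse 1 (0.112) or mouse 3 (0.128). FLAP is a myeloid protein, and myeloid markers moved in both directions in the same libraries. Of the Langerhans markers 3 of 4 rose, with Cd74 not called (log2 0.24, edgeR adjusted p = 0.0813). Of the 5 macrophage and monocyte markers tested, Csf1r (log2 -1.20) and Adgre1 (-0.85) fell, while Cd14 (2.89), Lyz2 (1.67) and Cd68 (0.77) rose. The part of these cells in the value of Alox5ap was not tested. Exons of Alox5ap share 189 bases with the antisense gene Gm19719, which had 126 counts beside 1823.

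The 7 called genes were also those whose CPM ranges did not overlap between the groups, as was the case for 58.5% of all genes tested (28.8% with the wounded libraries above and 29.7% below). Each of the 7 kept its direction in 3 of 3 mice, where 35.0% of all genes were higher and 37.4% lower in every mouse. The changes differed in size, from the 1.37-fold fall of Alox5ap to the 4.06-fold fall of Ptger3, and Hpgd and Ptger3 fell by more than any of the 3 risen genes rose. Ordered by TPM, which compares genes per length, Ptgs1 led non-wounded epidermis at 173 ± 9.998 TPM (SD), and 747 genes had a higher mean. Ptgs2 followed at 107 ± 51.3 TPM, with a range that overlapped that of Ptgs1. Ptges (56.8 ± 9.33 TPM), Alox5ap (53.4 ± 3.34 TPM) and Pla2g4a (51.1 ± 5.41 TPM) did not differ beyond their spread. Ptger4 (32.2 ± 4.97 TPM), Hpgd (16.6 ± 0.964 TPM), Ptges2 (12.9 ± 1.76 TPM), Ptger3 (1.56 ± 0.211 TPM) and Ptger2 (0.0614 ± 0.0419 TPM) came after, each with a range apart from the next.

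In wounded epidermis the order changed in its middle. Ptgs1 led at 228 ± 19.9 TPM (SD), and Ptges (100.1 ± 12.1 TPM) stood beside Ptgs2 (80.1 ± 16.3 TPM), with overlapping ranges. Ptger4, at 39.5 ± 1.17 TPM, lay above Alox5ap (31.2 ± 6.05 TPM) and Pla2g4a (23.4 ± 5.06 TPM), which overlapped each other. Ptges2 (10.2 ± 2.63 TPM) lay above Hpgd (3.43 ± 0.812 TPM), the reverse of their order in non-wounded epidermis. Ptger3 (0.246 ± 0.0686 TPM) and Ptger2 (0.1 ± 0.0838 TPM) came last and overlapped.

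**Figure D3:**
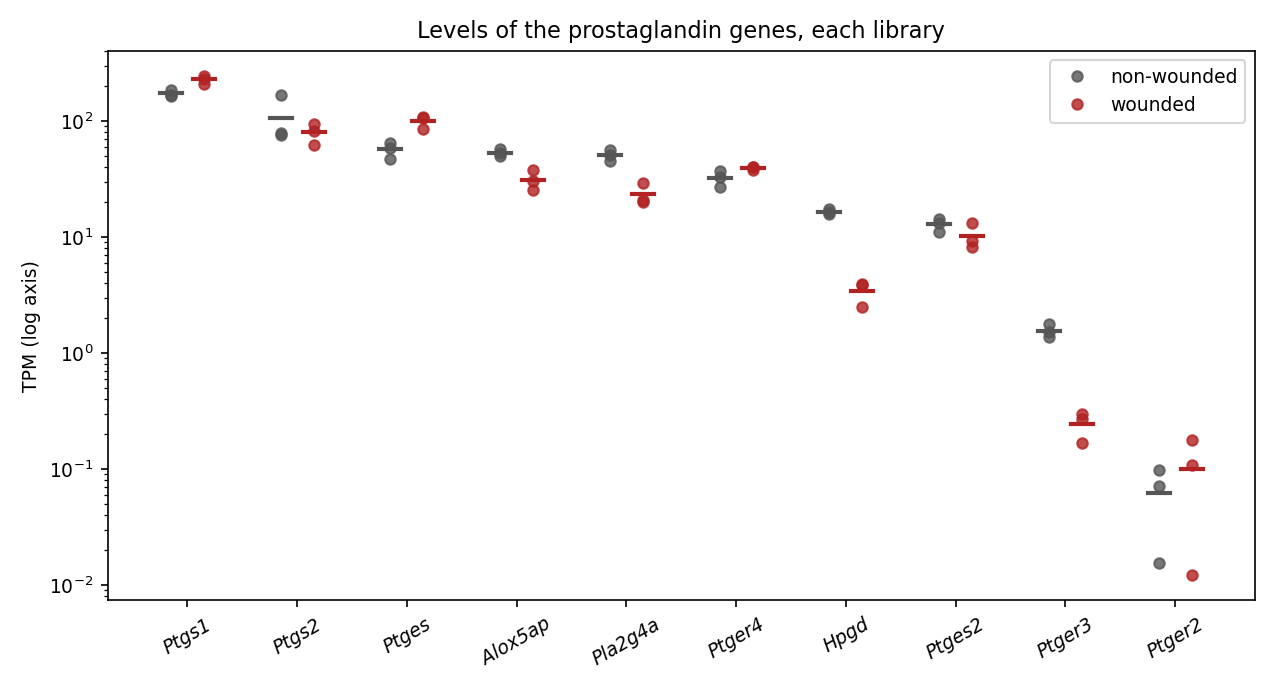
TPM of the 10 genes in every library on a log axis, in the order of the non-wounded means; points are libraries and bars are means, grey for non-wounded and red for wounded. Ptgs1 is highest in both groups, Ptges and Ptger4 stand higher and Hpgd and Ptger3 lower in the wounded libraries, and Ptger2 is lowest in both, with means of 0.0614 and 0.1 TPM.

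Pla2g4a and Ptgs2 are neighbours on chromosome 1 (GENCODE, GRCm38): Pla2g4a spans chr1:149829618-149961290 on the minus strand and Ptgs2 chr1:150100031-150108227 on the plus strand. Their starts lie 138741 bases apart and point away from each other, with 0 starts of other protein-coding genes between them. Pla2g4a was lower after wounding in all 3 mice and Ptgs2 in 1. The other genes lie at chr2:36230426-36252272 (Ptgs1), chr2:30889471-30929863 (Ptges), chr2:32395896-32405772 (Ptges2), chr8:56294585-56321043 (Hpgd), chr14:44988195-45003820 (Ptger2), chr3:157566892-157645888 (Ptger3), chr15:5206661-5244187 (Ptger4) and chr5:149264767-149288153 (Alox5ap). All 10 are protein-coding.

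The other genes of eicosanoid metabolism were described in 6 lists with 61 members, of which 48 were tested, 15 rose, 15 fell and 18 were not called. The share called, 62.5%, stands beside the 48.4% of all genes, and the median log2 fold change was -0.03 in both. No gene named from these lists changed direction under another scaling.

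Among 18 phospholipases A2, 12 were tested, 3 rose and 3 fell. Pla2g2f, which encodes a secreted phospholipase of the upper epidermis, rose from 684 ± 12.3 to 1175 ± 60.7 CPM (SD; log2 0.78, SE 0.09, edgeR adjusted p = 6.99e-05). Pla2g2d, a secreted enzyme known from dendritic cells, rose from 0.557 ± 0.111 to 1.68 ± 0.416 CPM, and the lysosomal enzyme gene Pla2g15 fell from 4.27 ± 0.965 to 2.15 ± 0.563 CPM. The call of Pla2g15 was lost without the mouse 1 non-wounded library (adjusted p = 0.0715) or the mouse 2 wounded library (0.0602) and on log2(TPM + 1) with no filter (limma 0.0581). That of Pla2g2d was lost on log2(TPM + 0.1) (limma 0.0583) and on log2(TPM + 1) with no filter (0.0531). Pla2g1b, Pla2g2a and Pla2g10 were at 0 counts in all libraries. Of 7 genes of arachidonate release and reacylation, 1 rose and 2 fell. Anxa1, which encodes annexin A1, a known inhibitor of cytosolic phospholipase A2, rose from 1351 ± 116 to 2159 ± 161 CPM (log2 0.68, SE 0.10, edgeR adjusted p = 0.000483). On log2(TPM + 1) with no filter the rise of Anxa1 was not called (0.31, limma adjusted p = 0.0903). Daglb (31.8 ± 3.66 to 20.2 ± 2.50 CPM), a diacylglycerol lipase, and Acsl4 (63.7 ± 9.41 to 42.1 ± 5.25 CPM), which activates arachidonic acid for return to lipids, fell.

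Of 9 other prostanoid synthases, 8 were tested, 3 rose and 1 fell. Ptges3, the cytosolic prostaglandin E synthase and co-chaperone p23, rose from 90.9 ± 5.02 to 152 ± 9.95 CPM (SD; log2 0.74, SE 0.09, edgeR adjusted p = 0.000110). Hpgds, the hematopoietic prostaglandin D synthase, rose from 136 ± 19.5 to 238 ± 38.1 CPM (log2 0.81, SE 0.14, edgeR adjusted p = 0.000897), in the same libraries in which 3 of 4 Langerhans markers were higher. The part of those cells was not tested. Ptgds, the lipocalin-type prostaglandin D synthase, rose from 5.25 ± 0.373 to 7.90 ± 1.36 CPM, a call lost with library totals alone (log2 0.27, adjusted p = 0.279). Leaving out 1 non-wounded library (mouse 1, 2 or 3: adjusted p = 0.0732, 0.0538 and 0.0694) or 1 wounded library (mouse 1 or 2: 0.106 and 0.0789) also ended the call. Ptgis, which encodes prostacyclin synthase, was at 0 counts in all libraries.

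Of 5 other genes of transport and inactivation, 2 rose and 1 fell. Slco2a1, the transporter that takes prostaglandins into cells, rose from 148 ± 27.6 to 281 ± 46.4 CPM (SD; log2 0.93, SE 0.15, edgeR adjusted p = 0.000614). On log2(TPM + 1) with no filter it was not called (0.58, limma adjusted p = 0.0913). Its direction was opposite to that of Hpgd, which acts on the prostaglandin it brings in. Ptgr2, a prostaglandin reductase that acts after Hpgd, fell from 24.95 ± 2.17 to 13.8 ± 2.33 CPM (log2 -0.86, SE 0.15, edgeR adjusted p = 0.000830). Abcc4, which exports prostaglandins, rose from 27.0 ± 2.76 to 35.6 ± 3.29 CPM, but was at log2 0.08 and not called with library totals alone (adjusted p = 0.619). Leaving out mouse 3 from the non-wounded group (adjusted p = 0.0733) or mouse 2 from the wounded group (0.0850) also ended the call.

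Of 7 other prostanoid receptor genes, 3 were tested and all 3 were called. Ptgdr, which encodes the prostaglandin D2 receptor DP1, fell from 5.59 ± 0.499 to 1.82 ± 0.429 CPM (SD; log2 -1.61, SE 0.25, edgeR adjusted p = 0.000550). Ptger1, which encodes EP1, fell from 3.13 ± 0.316 to 1.22 ± 0.277 CPM (log2 -1.34, SE 0.30, edgeR adjusted p = 0.00426). Of the EP receptor genes tested, Ptger1 and Ptger3 thus fell and Ptger4 rose. Ptgfrn, a negative regulator of the prostaglandin F receptor and not itself a prostaglandin receptor, rose from 156 ± 18.5 to 256 ± 22.5 CPM, and its call was lost on log2(TPM + 1) (0.34, limma adjusted p = 0.0872).

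**Figure D4:**
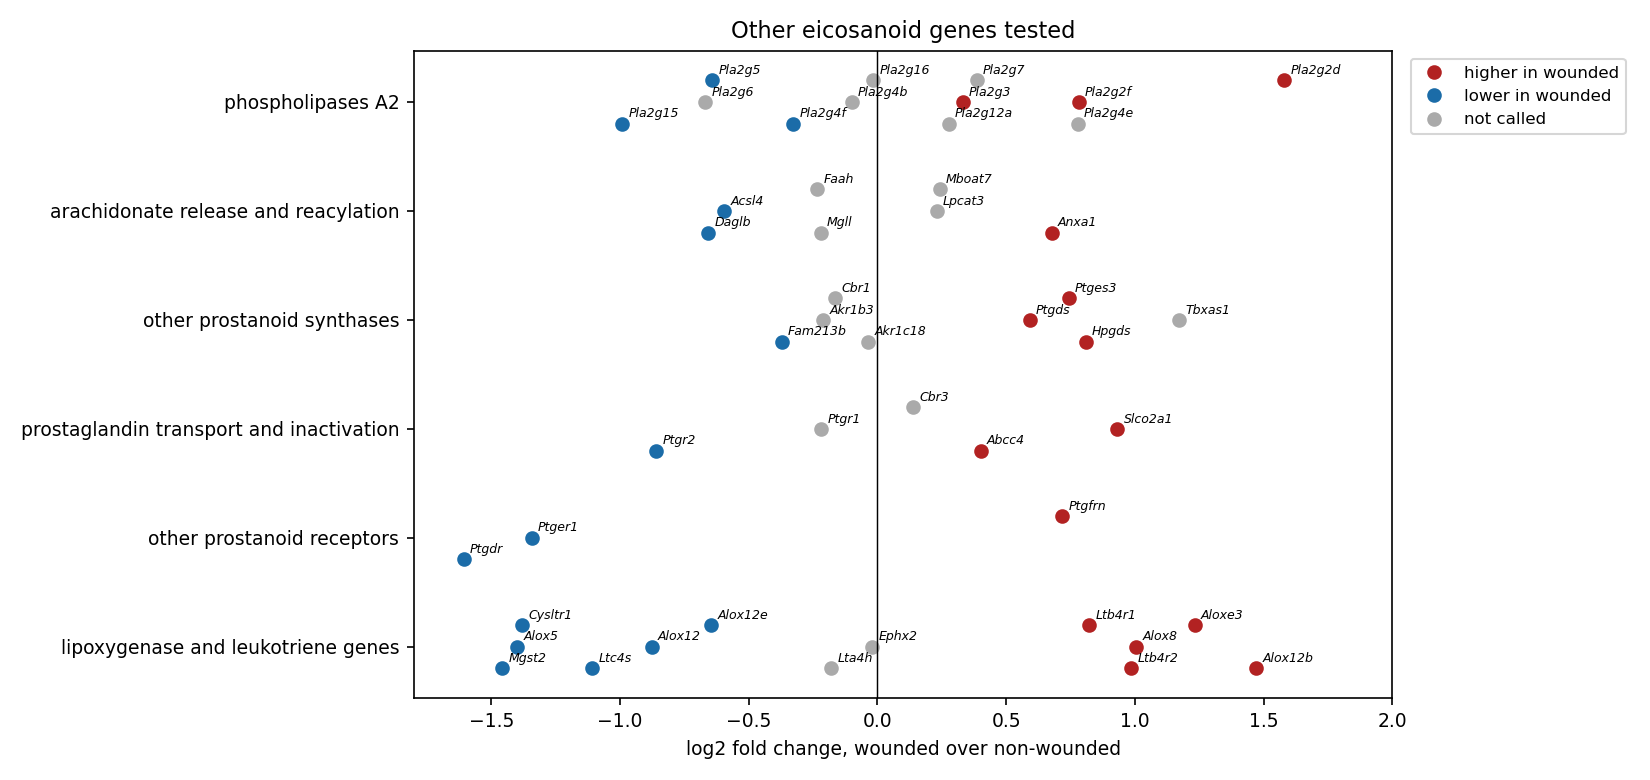
Log2 fold change, wounded over non-wounded, of the 48 tested genes of the 6 other lists, 1 row of points per list with each gene named; red is higher, blue lower and grey not called. Every list holds genes on both sides of 0, from Ptgdr at -1.61 to Pla2g2d at 1.58.

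The lipoxygenase and leukotriene list had the most genes tested, 13 of 15, and the most calls, 5 higher and 6 lower. The share called was 84.6%, beside 48.4% of all genes tested. It was 100% for the other prostanoid receptors, of which 3 were tested. Alox12b rose from 99.3 ± 15.2 to 275 ± 13.8 CPM (SD; log2 1.47, SE 0.12, edgeR adjusted p = 7.51e-06) and Aloxe3 from 103 ± 22.5 to 243 ± 45.2 CPM (log2 1.23, SE 0.17, edgeR adjusted p = 0.000208). Both encode lipoxygenases of the keratinocyte barrier. Further lipoxygenase genes of the list, named after their values were seen, moved in both directions. Alox12e fell from 456 ± 146 to 292 ± 90.2 CPM, with overlapping groups (log2 -0.65, SE 0.24, edgeR adjusted p = 0.0459). Alox12 fell from 32.4 ± 4.88 to 17.6 ± 4.94 CPM (log2 -0.88, SE 0.20, edgeR adjusted p = 0.00447). Alox8 rose from 1.70 ± 0.585 to 3.41 ± 0.255 CPM (log2 1.00, SE 0.32, edgeR adjusted p = 0.0247). Alox5, which encodes the 5-lipoxygenase that FLAP serves, fell from 37.5 ± 2.57 to 14.2 ± 2.01 CPM (log2 -1.40, SE 0.13, edgeR adjusted p = 2.01e-05), beside -0.45 for Alox5ap. As named after their values were seen, the leukotriene C4 synthase gene Ltc4s was at log2 -1.11 and the cysteinyl leukotriene receptor gene Cysltr1 at -1.38, and both fell. The leukotriene B4 receptor genes Ltb4r1 (log2 0.82) and Ltb4r2 (0.99) rose, calls lost on log2(TPM + 1) (limma adjusted p = 0.148 and 0.0613). The myeloid markers described above moved in the same libraries, and their part was not tested.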

How the data were processed

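Whole mouse epidermis was separated in trypsin and sequenced after poly-dT capture, per the labels' protocols. For the 6 libraries the authors deposited a table of estimated counts by gene symbol and a table of TPM. Per the submitters' processing notes, Salmon, edgeR and build mm10 were used. Versions, annotation release and strand setting: not given in the sources used here. Reads that fit several genes are shared out in estimated counts, and TPM depends on the transcript lengths assigned.

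Counts were rounded to whole numbers, filtered with filterByExpr (16079 genes kept), scaled by TMM (factors 1.12 in each non-wounded and 0.887 to 0.898 in the wounded libraries) and tested across all genes in R 4.3.3 by edgeR 4.0.16 (glmQLFTest), with no term for the mouse. SEs were taken from the F statistic as |log2 fold change|/√F. Alternatives used DESeq2 1.42.0, limma 3.58.1 on log2(TPM + 1) or log2(TPM + 0.1) for genes of at least 0.5 TPM in 3 libraries, other scalings and filters, a term for the mouse, and each library left out. The edgeR test was run on simulated counts with 50 genes changed at each fold. It called 19 unchanged genes in a simulation of 15678 genes tested. Of the changed genes it recovered 15 of 50 at 1.5-fold, 31 at 2-fold, 45 at 4-fold and 49 at 8-fold. A gene not called may therefore have changed by a small fold. The simulation changed 200 genes and held no mouse effect, whereas 48.4% of genes were called in the data, so it cannot check the scaling. Replicates are separate mice and differed by more than counting noise. The labels place both libraries of a number in 1 mouse, so they are paired by animal. Deviations from the group means correlated at 0.15, 0.04 and 0.17 within mice 1, 2 and 3 and at -0.14 to 0.01 between mice, across genes.

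The genes and lists were chosen with earlier results of these data known. From each wider list the called genes with the 3 smallest p-values are named, with genes at 0. The genes most like Ptgs2 are the 5 with the smallest root-mean-square difference of centred log2 CPM (prior count 2) among tested genes of at least 1 CPM on average, leaving out predicted genes and pseudogenes. Coordinates are 1-based.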

Additional observations from a re-analysis of the deposited data

How the results depend on the processing

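Over 16 alternatives, between 2 and 3 of the prostaglandin genes were called higher and between 3 and 4 lower. Ptgs1, Ptges, Hpgd, Ptger3 and Pla2g4a kept their direction and call in all 16, with log2 fold changes of 0.26 to 0.63, 0.81 to 1.22, -2.27 to -1.74, -2.35 to -1.03 and -1.14 to -0.39. Ptger4 (0.29 to 0.73) lost its call on log2(TPM + 1) (0.29, adjusted p = 0.102), on log2(TPM + 0.1) (0.30, adjusted p = 0.105) and on log2(TPM + 1) with no filter (0.29, adjusted p = 0.158). Alox5ap (-0.79 to -0.34) was not called with RLE factors (-0.44, adjusted p = 0.0516), and with a library left out it lay between -0.63 and -0.34. Ptgs2 and Ptges2 were called in none. Leaving out libraries moved Ptgs2 between -0.35 and 0.35 and Ptges2 between -0.21 and 0.12, and Ptges2 was at 0.0023 with RLE factors and 0.0027 with DESeq2. The difference of wounded from non-wounded libraries in the mean log2 TPM ratio of Ptgs2 to Ptgs1 lay between -0.94 and -0.42 with a library left out. With the mouse as a replicate block, Ptgs2 was at -0.03 (adjusted p = 0.930), and the block changed no call of these genes.

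Relative to TMM, the median of all genes lay at -0.32 with library totals, -0.15 with upper-quartile factors, -0.29 on log2(TPM + 1) and -0.33 on log2(TPM + 0.1). With totals alone 2168 genes were called higher and 6655 lower. On log2(TPM + 1), log2(TPM + 0.1) and log2(TPM + 1) with no filter, 1819, 1756 and 1561 genes were called higher, and 9, 8 and 5 of the other eicosanoid genes, against 3859 and 15 with TMM. The cause of the other moves was not tested. Few counts limit what can be said of Ptger2 and Ptger3.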

Other observations

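The genes nearest to Ptgs2 in pattern over the 6 libraries were picked out. Among 12121 genes, the 5 with the smallest root-mean-square difference to it in centred log2 CPM were Trpc1 (0.17), which encodes a cation channel, Snn (0.19), Cyp3a13 (0.19), which encodes a cytochrome P450, Fez2 (0.20) and Tmem150a (0.20), against a median of 0.52 over all candidates. Like Ptgs2, each was highest in the non-wounded library of mouse 3. Cyp3a13 stood at 37.8, 44.3 and 62.9 CPM in non-wounded and at 46.9, 42.1 and 43.7 CPM in wounded libraries of mice 1, 2 and 3, and Trpc1 at 2.92, 3.05 and 5.18 CPM and then at 3.65, 3.07 and 2.86 CPM. None of the 5 was called. Since they were picked for their likeness over 6 values, the small differences and the shared highest library follow from the choice. The median does not say how near a gene with unchanged levels would lie, so the list is a description only.

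Of the summed TPM of the 3 prostaglandin E synthase genes, Ptges held 36.9%, 40.6% and 35.2% in non-wounded and 49.5%, 40.9% and 45.8% in wounded libraries, and the nearest values of the groups, both in mouse 2, lay close together. Tbxas1, the thromboxane synthase gene, stood at 0.315 ± 0.142 and 0.709 ± 0.339 CPM (SD, n = 3), with overlapping groups, and was not called (log2 1.17, SE 0.58, edgeR adjusted p = 0.120). It was higher in 3 of 3 mice. In the same libraries the 4 platelet markers summed to 1.27 to 1.64 CPM and then to 3.45 to 4.26 CPM. Itga2b, the only one of them tested, was higher (log2 1.23, edgeR adjusted p = 0.00428). Pf4 went from 0 counts in each non-wounded library to 9, 5 and 5 counts in the wounded ones. Ppbp went from 0, 1 and 0 to 1, 3 and 2 counts, and Gp9 stayed at 0. The part of platelets in the value of Tbxas1 was not tested.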
